A study of Mus musculus with 24 samples.

Results

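The Rab GTPases are the largest branch of the Ras-related small GTPases. The genes described here are those whose symbol in the MEF vehicle comparison is Rab followed by a number and at most 1 letter and 1 further digit. There were 58 such genes among the 43626 genes listed, and each was followed by its Ensembl identifier through 4 comparisons. Rab-like genes, Rab effectors and pseudogenes were not members. The rule itself uses names alone, though the family was chosen for description with earlier results of these data known.

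A Rab protein works as a membrane switch. Loaded with GTP by a guanine nucleotide exchange factor (GEF), it sits on one kind of membrane and recruits effectors that bud, move, tether or fuse vesicles. A GTPase-activating protein (GAP) turns it off, and a GDP dissociation inhibitor (GDI) then carries the lipid-modified protein through the cytosol. Different members mark different organelles: Rab1 and Rab2 the route between endoplasmic reticulum (ER) and Golgi, Rab5 the early endosome, Rab11 the recycling endosome, Rab7 the late endosome and lysosome, and Rab3 and Rab27 secretory granules.

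The study measured polyadenylated RNA in 24 mouse samples, in 8 groups of 3. Mof (gene symbol Kat8) is a lysine acetyltransferase of histone H4. Mof knockout and wild-type mouse embryonic fibroblasts (MEFs) at passage 2 were given vehicle (DMSO) or Adriamycin, the DNA-damaging drug doxorubicin, at 0.1 µg/ml for 24 h. Differentiated MPC5 podocytes, a conditionally immortalized mouse line of the kidney filter's epithelial cells, at passage 20, carried a Mof knockdown or a scramble control and were given DMSO or Adriamycin at 0.25 µg/ml for 24 h. The labels do not give the construct behind the knockout or the knockdown, and the drug dose differs between the cell types.

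The values come from 4 comparisons that the authors made with DESeq2, each of Mof-depleted with control cells of 1 cell type and 1 treatment. They are summaries over both groups, so no value per sample, depth or spread within a group can be given, and whether 2 groups overlap cannot be read. Changes are log2 fold changes, Mof-depleted over control, with their standard error (SE), and a gene is called where the adjusted p lies below 0.05. Kat8 stood at -1.96, -1.71, -1.49 and -1.24 in the authors' deposited tables for MEFs with vehicle, MEFs with Adriamycin, podocytes with vehicle and podocytes with Adriamycin. Since the tables do not say which group is the numerator, its sign gave the direction, and so Kat8 does not test the labels here. The MEF tables list every gene, while the podocyte tables list called genes only. A member absent from a podocyte table was either not called or not tested, and is written as not listed.

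As for cell identity, the authors' deposited table for MEFs with vehicle gave the fibroblast collagen Col1a1 a mean normalized count of 180211. Of the podocyte markers, the slit diaphragm gene Nphs1 and the regulator Wt1 were not listed in either podocyte table, which leaves their level unknown. The actin-associated Synpo (0.62 and 1.10) and the surface sialomucin Podxl (0.56 and 1.06) were higher in the authors' deposited tables for podocytes with vehicle and Adriamycin. Cd2ap (0.98) and Actn4 (0.36) were higher in the authors' deposited table for podocytes with Adriamycin.

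Of the 58 members, 44 were called in at least 1 comparison. There were 18 called in 1 comparison, 13 in 2, 10 in 3 and 3 in all 4, namely Rab7, Rab31 and Rab32. Rab32 was higher in all 4, while Rab7 and Rab31 were higher in MEFs and lower in podocytes under both treatments. Calls were common over all genes tested: 17.8% higher and 19.6% lower in MEFs with vehicle, and 16.6% and 16.1% with Adriamycin. In podocytes these shares were 8.7% and 5.64% with vehicle, and 27.8% and 27.9% with Adriamycin. How many of all genes were called in at least 1 comparison was not computed. These counts are therefore not read as particular to the family.

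Promoter sequences are shown for Rab7 and Rab31, which were called in all 4 comparisons and had opposite signs in MEFs and podocytes. Rab32, also called in all 4 but with a constant sign, is not shown. Also shown are Rab5a and Rab21, early endosome genes whose windows hold a palindrome that few promoters carry. Each sequence is the 250 bases before the annotated RNA start in RefSeq (GRCm38.p6), 5′ to 3′ on the gene's own strand. Capitals mark CACGTG, the E-box that basic helix-loop-helix proteins such as the lysosomal gene regulator TFEB can bind.
Rab7, chr6:88045271-88045520, minus strand: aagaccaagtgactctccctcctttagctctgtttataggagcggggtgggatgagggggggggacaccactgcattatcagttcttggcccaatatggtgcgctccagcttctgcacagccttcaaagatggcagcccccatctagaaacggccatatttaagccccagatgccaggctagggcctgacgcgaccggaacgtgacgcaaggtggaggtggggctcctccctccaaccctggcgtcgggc
Rab31, chr17:65772753-65773002, minus strand: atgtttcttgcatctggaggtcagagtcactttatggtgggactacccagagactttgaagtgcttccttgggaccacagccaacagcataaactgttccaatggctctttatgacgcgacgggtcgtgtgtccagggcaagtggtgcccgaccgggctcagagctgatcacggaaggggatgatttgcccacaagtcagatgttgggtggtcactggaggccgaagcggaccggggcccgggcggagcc
Rab5a, chr17:53478984-53479233, plus strand: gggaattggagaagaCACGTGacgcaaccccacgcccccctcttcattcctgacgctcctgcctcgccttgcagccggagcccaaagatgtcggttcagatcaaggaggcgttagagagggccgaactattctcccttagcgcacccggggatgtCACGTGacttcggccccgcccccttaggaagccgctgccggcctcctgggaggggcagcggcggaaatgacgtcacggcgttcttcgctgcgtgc
Rab21, chr10:115315592-115315841, minus strand: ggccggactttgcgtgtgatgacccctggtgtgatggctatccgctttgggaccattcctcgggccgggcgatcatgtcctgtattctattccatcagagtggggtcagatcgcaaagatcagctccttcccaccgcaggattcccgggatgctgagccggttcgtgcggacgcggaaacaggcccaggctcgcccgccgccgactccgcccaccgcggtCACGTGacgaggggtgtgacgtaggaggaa

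RefSeq windows of 300 bases, which run from 250 bases before the start to 50 after it, were matched for 48 of the 58 members. CACGTG, which reads the same on both strands, was in 6 of these 48 (12.5%): Rab5a, Rab20, Rab21, Rab23, Rab24 and Rab27a. It was in 8.09% of all 27025 genes with a window. The longer TCACGTGA, which contains CACGTG, was in Rab5a, Rab21 and Rab24, or 6.25% of the 48, against 1.12% of all genes. The 30 bases around each longer match are shown with the match in capitals. The match begins 96 bases before the start in Rab5a and 31 before it in Rab21, and lies just after the start in Rab24.
Rab5a site, chr17:53479127-53479156, plus strand: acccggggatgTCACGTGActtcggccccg
Rab21 site, chr10:115315604-115315633, minus strand: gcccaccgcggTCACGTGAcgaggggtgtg
Rab24 site, chr13:55321961-55321990, minus strand: cggcgcccgcgTCACGTGAccgggcgtccc

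All 3 genes with the longer match were higher in MEFs with vehicle and lower in podocytes with Adriamycin. So were Rab1, Rab5c, Rab7, Rab11a, Rab31, Rab34, Rab40c and Rab43, whose windows lack the longer match. Of all genes tested, 17.8% were higher in MEFs with vehicle and 27.9% were lower in podocytes with Adriamycin. The share of all genes with both calls was not computed. A link between match and call was not tested. Of the 3 genes with the short match alone, Rab20 and Rab23 were also lower in podocytes with Adriamycin but were not called in either MEF comparison, and Rab27a was lower in both MEF comparisons and not listed in podocytes. The AP-1 element TGANTCA, searched on both strands, was in Rab15, Rab34 and Rab39b (6.25% of the 48, against 8.97% of all genes). The interferon-stimulated response element core, searched on both strands, was in Rab19 alone (2.08%, against 3.99% of all genes). Neither of these was in the windows of Rab7 or Rab31. A match describes letters only, and binding was not measured.

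**Figure D1:**
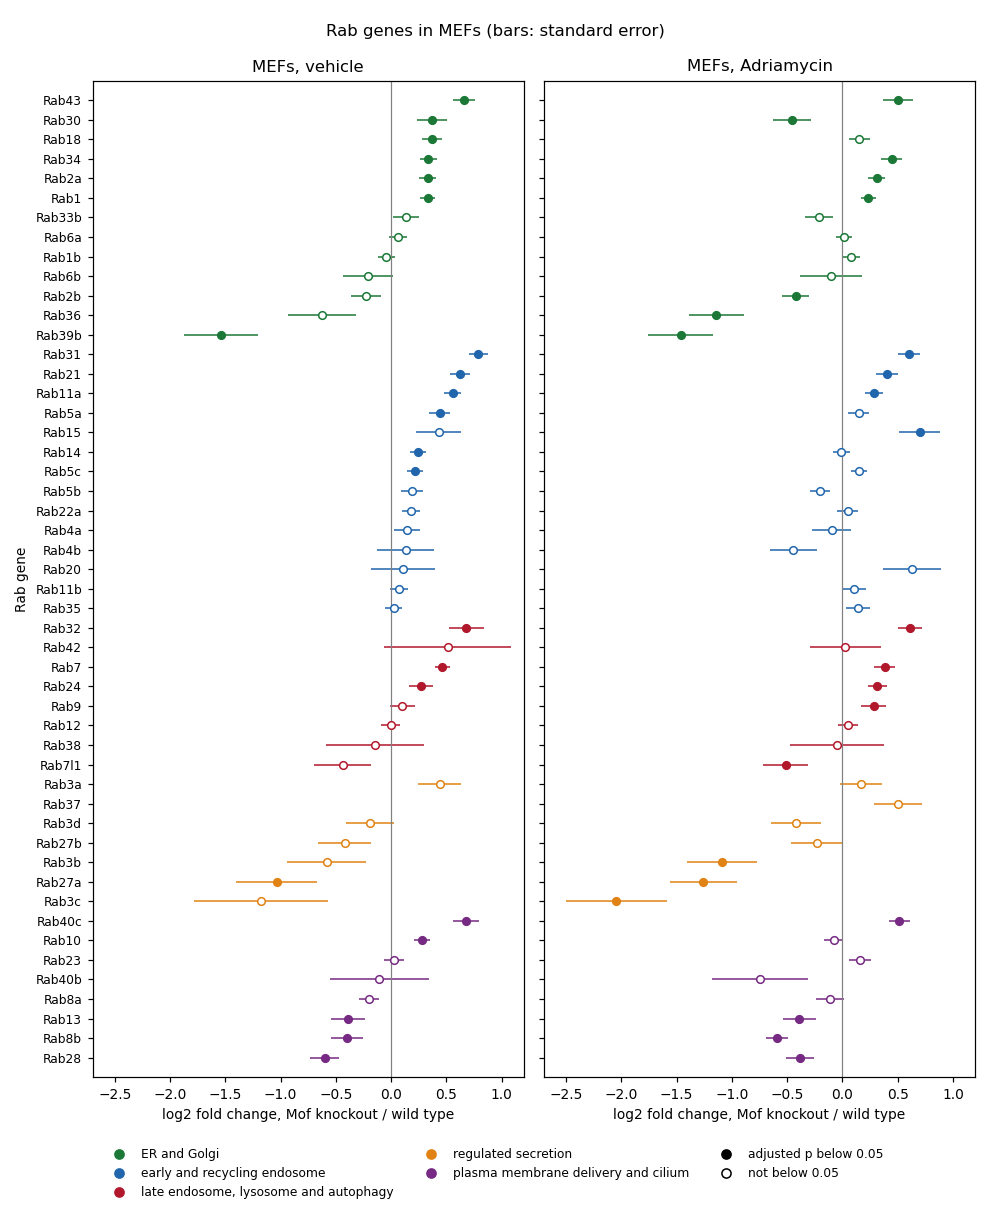
Log2 fold change (x axis) of each Rab gene with an adjusted p in at least 1 MEF comparison (rows, coloured by role), Mof knockout over wild type, with vehicle (left) and Adriamycin (right). Bars are 1 SE and filled points are called; the endosomal genes lie mostly to the right of 0, and Rab39b and Rab27a lie to the left in both panels.

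In MEFs given vehicle, Mof loss went with more RNA of many Rab genes, by small amounts. Of the 58 members, 49 had an adjusted p and 9 fell below the authors' expression filter. Called higher were 17 (34.7% of the 49), where 17.8% of all genes tested were higher. Called lower were 5 (10.2%), where 19.6% of all genes tested were lower. The median change over the 49 was 0.13, against 0.01 over all genes tested. No called member rose by 2-fold or more, and 2 fell by 2-fold or more.

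Rab31, which works between the trans-Golgi and endosomes, had the largest rise in the authors' deposited table for MEFs with vehicle, at 0.79 ± 0.09 (SE), or 1.72-fold (DESeq2 adjusted p = 1.45e-18). Next in the same authors' deposited table were Rab32 (0.68 ± 0.16, adjusted p = 0.000106), which brings enzymes to lysosome-related organelles, and Rab40c (0.68 ± 0.12, adjusted p = 1.21e-07), which carries a SOCS box for ubiquitin ligases. They were followed in the authors' deposited table by Rab43 (0.66 ± 0.10, adjusted p = 4.48e-10), a Golgi member, Rab21 (0.62 ± 0.09, adjusted p = 9.95e-11), which moves integrins through early endosomes, and the recycling endosome Rab11a (0.55 ± 0.08, adjusted p = 7.63e-11). These 6 lay between 1.47-fold and 1.72-fold.

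Other members of the main organelle routes were higher by less. In the authors' deposited table for MEFs with vehicle, Rab7 stood at 0.46 ± 0.07 (1.38-fold), the early endosome Rab5a at 0.44 ± 0.10 (1.36-fold) and Rab5c at 0.21 ± 0.08 (1.16-fold). Its ER-to-Golgi members Rab1 and Rab2a each reached 1.26-fold in that authors' deposited table, at 0.33 ± 0.07. The remaining higher members were Rab34, Rab18, Rab30, Rab10, Rab24 and Rab14, between 0.24 and 0.37 in the authors' deposited table.

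The 5 lower members came mostly from secretion and the cell surface. Rab39b, a neuronal and autophagy-linked member, fell by 1.54 ± 0.34 to 0.344 of control in the authors' deposited table (adjusted p = 3.75e-05), at a mean count of 58.8. Rab27a, which docks secretory granules and exosome-bearing endosomes, fell by 1.04 ± 0.37 in the authors' deposited table (adjusted p = 0.0158), at a mean count of 37.1. Lower by less in the authors' deposited table were the ciliary and photoreceptor-linked Rab28 (-0.60 ± 0.13), the plasma membrane transport gene Rab8b (-0.40 ± 0.14) and the tight junction-linked Rab13 (-0.39 ± 0.15).

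By role, the endosomal classes held no lower member with vehicle, where 17.8% of all genes tested were higher and 19.6% lower. Of 16 early and recycling endosome members, 6 were higher and 0 lower (14 with an adjusted p). Of 9 late endosome, lysosome and autophagy members, 3 were higher and 0 lower (8 with an adjusted p). The 16 ER and Golgi members had 6 higher and 1 lower. The 8 members of plasma membrane delivery and the cilium had 2 higher and 3 lower, and the 9 of regulated secretion 0 higher and 1 lower. Differences between the roles were not tested.

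Close paralogs did not all share a call. Rab11a was called and its paralog Rab11b was not (0.07 ± 0.08 in the authors' deposited table, adjusted p = 0.554). Rab1 was called where Rab1b was not (-0.04 ± 0.07 in the authors' deposited table, adjusted p = 0.692). Among the Rab5 genes, Rab5b missed the threshold in the authors' deposited table (0.19 ± 0.10, adjusted p = 0.137), close to Rab5c in size. Rab8a (-0.20 ± 0.09, adjusted p = 0.0629 in the authors' deposited table) had the sign of Rab8b. Differences between paralogs were not tested. The sources used here do not give how reads shared by paralogs or processed pseudogenes were assigned.

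Leukocyte genes moved in the same comparison. Of 8 fixed markers, 5 were higher in the authors' deposited table for MEFs with vehicle: Lyz2 (1.29), Emr1 (1.21), C1qa (1.01), Cd68 (0.83) and C1qb (0.81). Ptprc, Csf1r and Itgam were not called, and 0 of the 8 was lower. Mean counts of the 8 ran from 58.1 to 1924 in that authors' deposited table, so none was at 0. With Adriamycin, DESeq2 called 0 of the 8 in the authors' deposited table. Of 7 fibroblast markers, the matrix proteoglycan genes Lum (2.42) and Dcn (1.42) were higher and Col1a2 (-0.33) lower in the authors' deposited table for MEFs with vehicle. These 3 kept their call and sign with Adriamycin (1.30, 0.69 and -0.48 in the authors' deposited table). Of 4 epithelial markers, Krt18 (0.63) was higher with vehicle in the authors' deposited table. The part of any marker list in the Rab changes was not tested. In such bulk RNA a change in the share of a cell type and a change in RNA per cell cannot be told apart.

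**Figure D2:**
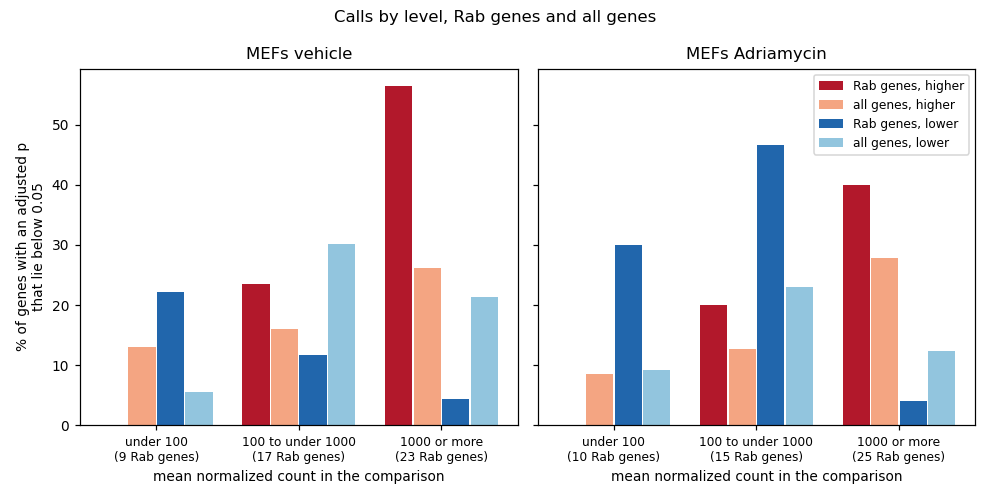
Percentage of genes called higher (reds) or lower (blues) in MEFs by mean normalized count (x axis), for Rab genes (dark) and all genes with an adjusted p (light). In the top class the Rab genes are higher in 56.5% with vehicle and 40% with Adriamycin, and 0 of those under 100 is higher.

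The higher calls were mostly among abundant genes. Of the 23 members with a mean count of 1000 or more with vehicle, 13 were higher (56.5%) and 1 was lower, where 26.2% of all genes at that level were higher and 21.3% lower. From 100 to under 1000 there were 4 higher and 2 lower of 17, where 15.98% of all genes were higher and 30.19% lower. Under 100 there were 0 higher and 2 lower of 9, where 13.04% of all genes were higher and 5.52% lower. With vehicle, the share of higher calls thus rose with level over all genes too. With Adriamycin the top class had 10 higher and 1 lower of 25, where 27.8% of all genes at that level were higher and 12.3% lower. The middle class then had 3 higher and 7 lower of 15, where 12.6% of all genes were higher and 22.9% lower. The lowest class had 0 higher and 3 lower of 10, where 8.56% of all genes were higher and 9.20% lower.

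Per kilobase of exon, computed here from the authors' deposited table for MEFs with vehicle, Rab7 was the most abundant member at 3092 normalized counts per kb. Rab2a (1843), Rab1 (1808), Rab5c (1622), Rab1b (1281) and Rab10 (1145) followed on this scale, which averages knockout and wild-type samples. With no spread per sample, it cannot be said which neighbours in this order differ. Another 8 members had under 1 count per kb, with Rab9b the lowest.

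With Adriamycin, MEFs held nearly as many lower as higher Rab genes. There were 13 higher members (26.0% of 50 with an adjusted p), where 16.6% of all genes tested were higher. There were 11 lower members (22.0%), where 16.1% of all genes tested were lower. The median over the 50 was 0.04, against -0.02 over all genes tested, and 5 of the lower members fell by 2-fold or more. Counting only changes of at least 0.5 in log2 size turned the balance to 4 higher and 7 lower.

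The higher members were led by Rab15, an endosomal member best known in neurons, at 0.70 ± 0.19 in the authors' deposited table (1.62-fold, adjusted p = 0.00122). Rab32 (0.61 ± 0.11, adjusted p = 1.04e-06) and Rab31 (0.60 ± 0.10, adjusted p = 1.97e-08) came next in the authors' deposited table for MEFs with Adriamycin. Rab40c (0.51 ± 0.09, adjusted p = 1.33e-06), Rab43 (0.50 ± 0.14, adjusted p = 0.0018) and Rab34 (0.44 ± 0.09, adjusted p = 2.11e-05), a Golgi and cilium member, closed the top 6 in the authors' deposited table. Rab7 stood at 0.38 ± 0.10, or 1.30-fold, in that authors' deposited table.

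Secretory Rabs were among the largest falls. Rab3c, a vesicle Rab of neurons and endocrine cells, fell by 2.05 ± 0.46 in the authors' deposited table to 0.242 of control (adjusted p = 9.55e-05), at a mean count of 30.7. Rab27a fell by 1.26 ± 0.30 (adjusted p = 0.000291) and Rab3b by 1.09 ± 0.32 (adjusted p = 0.00347) in the authors' deposited table. Their mean counts were 43.0 for Rab27a and 261 for Rab3b in that authors' deposited table. Outside secretion, the same authors' deposited table had Rab39b at -1.46 ± 0.29 (adjusted p = 9.96e-06), the Golgi-linked Rab36 at -1.14 ± 0.25 (adjusted p = 7.52e-05) and Rab8b at -0.59 ± 0.10 (adjusted p = 1.16e-07). Regulated secretion then had 0 higher and 3 lower of 9 members (7 with an adjusted p). Early and recycling endosomes had 4 higher and 0 lower of 16 (14 with an adjusted p). ER and Golgi had 4 higher and 4 lower of 16. Late endosome, lysosome and autophagy had 4 and 1 of 9, and plasma membrane delivery and the cilium 1 and 3 of 8. Of all genes tested with Adriamycin, 16.6% were higher and 16.1% lower. No difference between roles was tested.

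Between the MEF comparisons, 17 members were called in both, which is 77.3% of the 22 called with vehicle and 70.8% of the 24 called with Adriamycin. Over all genes, those called in both were 49.96% of the vehicle calls and 63.2% of the Adriamycin calls. Of the 17 members, 11 were higher in both, 5 were lower in both (Rab8b, Rab13, Rab27a, Rab28 and Rab39b), and Rab30 changed sign. Over all genes called in both comparisons, 97.3% kept their sign.

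The effect of Mof loss with Adriamycin was set against that with vehicle in a z test on the difference of the deposited log2 fold changes, adjusted over 13973 genes by Benjamini-Hochberg. It called 2 of 49 members, where 7.09% of all genes were called. Rab30, a Golgi member, differed by -0.82 ± 0.22 (SE; z test, adjusted p = 0.00616), from 0.37 with vehicle to -0.45 with drug in the authors' deposited tables. Rab10, which delivers cargo such as glucose transporters to the surface, differed by -0.36 ± 0.11 (z test, adjusted p = 0.0282). Rab5b (-0.39 ± 0.14, adjusted p = 0.0541) and Rab11a (-0.27 ± 0.11, adjusted p = 0.139) missed the threshold in this z test. Rab32 and Rab7 were among the 47 members not called as different. The median of the 49 differences was -0.13, against -0.02 over all 13973 genes. No shift common to the family is read from this, since 47 of the 49 were not called.

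**Figure D3:**
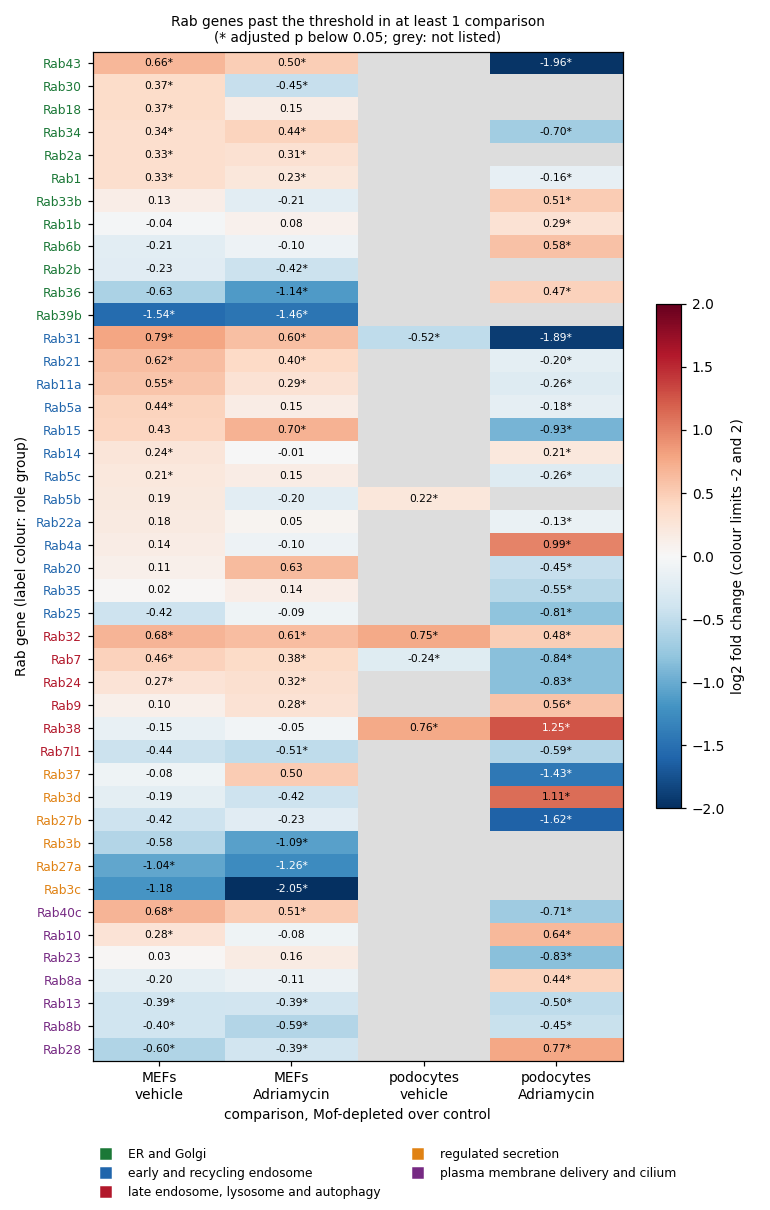
Log2 fold change, Mof-depleted over control, of the 44 Rab genes called in at least 1 comparison (rows, label colour by role) in the 4 comparisons (columns); stars mark called values and grey marks genes not listed. Rab32 is red in all 4 columns, while Rab7 and Rab31 are red in MEFs and blue in podocytes.

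In podocytes given vehicle, few Rab genes were listed. Of the 58 members, 3 were higher (5.17%), where 8.7% of all genes tested were higher, and 2 were lower (3.45%), where 5.64% were lower. The podocyte denominators differ, since how many of the 53 other members were tested is not known. Rab38, the closest relative of Rab32 and a partner in melanosome biogenesis, stood at 0.76 ± 0.22 in the authors' deposited table (adjusted p = 0.00916). Rab32 stood at 0.75 ± 0.20 (adjusted p = 0.00232) and Rab5b at 0.22 ± 0.08 (adjusted p = 0.0496) in the authors' deposited table for podocytes with vehicle. Lower there were Rab31, at -0.52 ± 0.11 (adjusted p = 0.000107), and Rab7, at -0.24 ± 0.07 (adjusted p = 0.0123), both from the authors' deposited table.

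With Adriamycin, 35 members were listed in podocytes, and most were lower. There were 22 lower members (37.9% of 58), where 27.9% of all genes tested were lower. There were 13 higher members (22.4% of 58), where 27.8% of all genes tested were higher. The median over the 35 listed was -0.26, against -0.12 over all genes listed, and 4 fell and 2 rose by 2-fold or more.

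The deepest fall was that of Rab43, at -1.96 ± 0.07 in the authors' deposited table, or 0.258 of control (adjusted p = 3.67e-149). Rab31 followed in the authors' deposited table at -1.89 ± 0.08, or 0.269 of control (adjusted p = 2.66e-124). The secretory Rab27b (-1.62 ± 0.30, adjusted p = 2.02e-07) and Rab37 (-1.43 ± 0.26, adjusted p = 1.73e-07) were next in the authors' deposited table, at mean counts of 42.2 and 53.3. Rab15 stood at -0.93 ± 0.21 (adjusted p = 2.17e-05) and Rab7 at -0.84 ± 0.04, or 0.559 of control (adjusted p = 5.59e-98), in the authors' deposited table. Rab7, the main Rab of the late endosome, was also abundant here, at a mean count of 9927 in that authors' deposited table. Rab24 (-0.83 ± 0.06), which takes part in autophagosome clearance, and the Hedgehog pathway inhibitor Rab23 (-0.83 ± 0.05) were close to Rab7 in the authors' deposited table.

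Higher members came from several compartments. Rab38 stood at 1.25 ± 0.34 (2.38-fold, adjusted p = 0.000575) and Rab3d, a granule Rab of exocrine cells, at 1.11 ± 0.22 (2.17-fold, adjusted p = 1.95e-06) in the authors' deposited table. The fast recycling gene Rab4a reached 0.99 ± 0.23 (adjusted p = 5.47e-05), Rab28 0.77 ± 0.11 (adjusted p = 3.55e-12), Rab10 0.64 ± 0.05 (adjusted p = 2.13e-31) and the Golgi gene Rab6b 0.58 ± 0.11 (adjusted p = 7.4e-07) in the authors' deposited table. Rab32 stood at 0.48 ± 0.11 in that authors' deposited table.

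By role, early and recycling endosomes had 2 higher (Rab4a and Rab14) and 10 lower of 16 members in podocytes with Adriamycin, where 27.8% of all genes tested were higher and 27.9% lower. Late endosome, lysosome and autophagy had 3 higher and 3 lower of 9. ER and Golgi had 4 higher and 3 lower of 16, plasma membrane delivery and the cilium 3 higher and 4 lower of 8, and regulated secretion 1 higher and 2 lower of 9. Among paralogs, Rab8a rose (0.44 ± 0.06) where Rab8b fell (-0.45 ± 0.09), and Rab1b rose (0.29 ± 0.06) where Rab1 fell (-0.16 ± 0.04), in the authors' deposited table. Of the 8 leukocyte markers, Csf1r was higher (2.65) and Cd68 lower (-0.47) in the authors' deposited table for podocytes with Adriamycin, and the other 6 were not listed. The epithelial keratin genes Krt8 (-0.35, then 0.85) and Krt18 (-0.82, then 0.44) were lower with vehicle and higher with Adriamycin in the authors' deposited tables for podocytes. The part of these markers in the Rab changes was not tested.

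All 4 members listed in both podocyte comparisons kept their sign, where 65.7% of all genes listed in both did. The z test of the drug difference could be made for those 4 alone and called 2, where 63.4% of the 1518 genes listed in both were called. Rab31 was lower with the drug by a further -1.38 ± 0.14 (z test, adjusted p = 5.85e-23) and Rab7 by -0.60 ± 0.08 (z test, adjusted p = 1.34e-12). For Rab32 the difference was -0.27 with a 95% interval of -0.71 to 0.18, and for Rab38 it was 0.50 with an interval of -0.30 to 1.30.

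**Figure D4:**
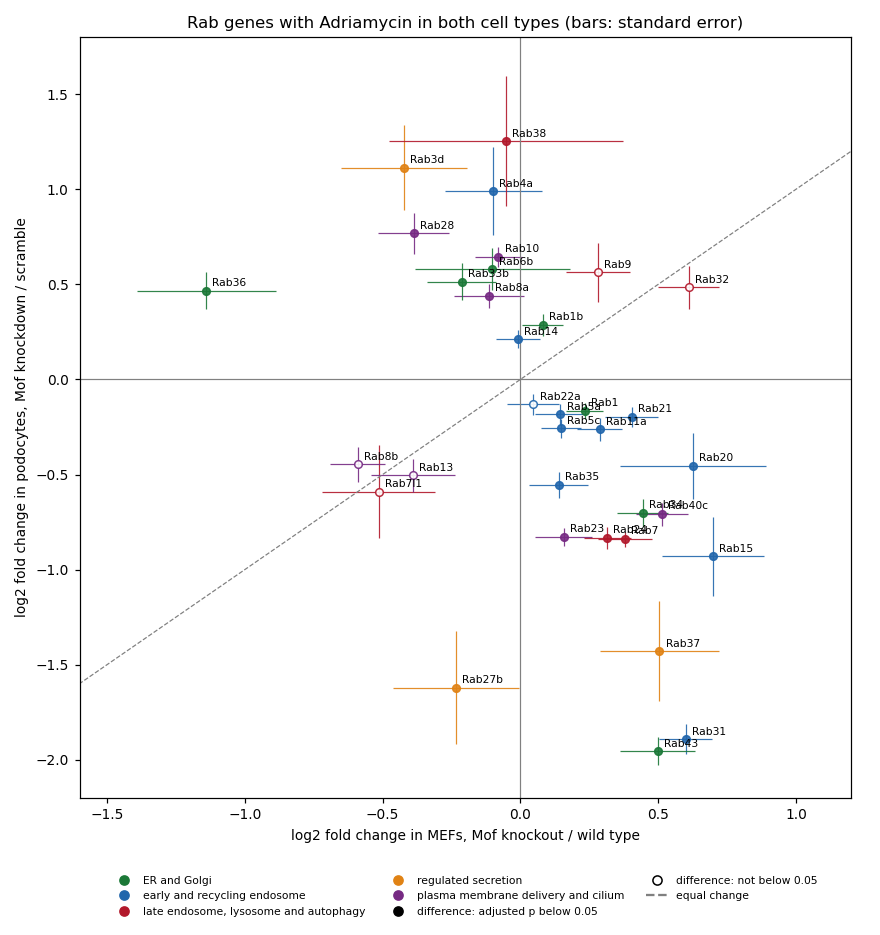
Log2 fold change with Adriamycin in MEFs (x axis, knockout over wild type) and podocytes (y axis, knockdown over scramble) of the 34 Rab genes with a test of the difference; bars are 1 SE, and filled points differ between the cell types. Rab31 and Rab43 lie farthest below the dashed line of equal change, and Rab32 and Rab8b lie near it.

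The cell types were compared for the same treatment. With Adriamycin, 17 members were called in both, which is 70.8% of the 24 called in MEFs and 48.6% of the 35 called in podocytes. Over all genes these shares were 69.0% and 33.3%, so the first lies close to the background. Of the 17, 12 had opposite signs (70.6%), where 74.5% of all genes called in both had opposite signs. Of those 12, Rab1, Rab7, Rab11a, Rab15, Rab21, Rab24, Rab31, Rab34, Rab40c and Rab43 were higher in MEFs and lower in podocytes. Rab28 and Rab36 were the reverse. Rab9 and Rab32 were higher, and Rab7l1, Rab8b and Rab13 lower, in both cell types.

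The z test of this difference called 28 of the 34 members that could be tested, where 79.3% of the 8842 genes were called. Podocytes lay above MEFs for 11 and below for 17 of the 34, where 38.8% of all genes tested were called with podocytes below. Differences, podocytes minus MEFs, were -2.49 ± 0.12 for Rab31 (z test, adjusted p = 2.83e-86) and -2.45 ± 0.16 for Rab43 (adjusted p = 5.66e-54). For Rab7 it was -1.22 ± 0.11 (z test, adjusted p = 1.22e-29) and for Rab24 -1.15 ± 0.10 (adjusted p = 2.45e-27). The z test did not call Rab7l1, Rab8b, Rab9, Rab13, Rab22a or Rab32. With vehicle, the z test called 2 of 5 members, where 55.9% of the 1897 genes were called. These were Rab31, at -1.30 ± 0.14 (z test, adjusted p = 7.59e-19), and Rab7, at -0.70 ± 0.10 (adjusted p = 1.35e-11). Cell type, dose, and knockout or knockdown cannot be told apart in this difference, and only genes listed for podocytes enter it.

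Some members share exons with other genes in the GENCODE M21 annotation, and the sources used here do not give the strand setting of the counting. Gm45140, on the same strand, covers 75.4% of the exon bases of Rab43 and has no row in the MEF tables. Prelid1, on the opposite strand, covers 62.4% of Rab24. In the authors' deposited tables Prelid1 was not called in MEFs with vehicle (-0.04) and stood at 0.24 with Adriamycin. Gm16278, antisense to 3.33% of Rab40c, moved with Rab40c in the authors' deposited tables, at 2.14 and 0.90 in MEFs and -1.46 in podocytes with Adriamycin. Of other called members, genes on the opposite strand cover 59.3% of the exon bases of Rab2b, 25.6% of Rab20, 18.7% of Rab33b and 18.6% of Rab39b. The values of Rab24, Rab40c and Rab43 are uncertain as values of those genes alone, and so are those of other members that share exons.

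**Figure D5:**
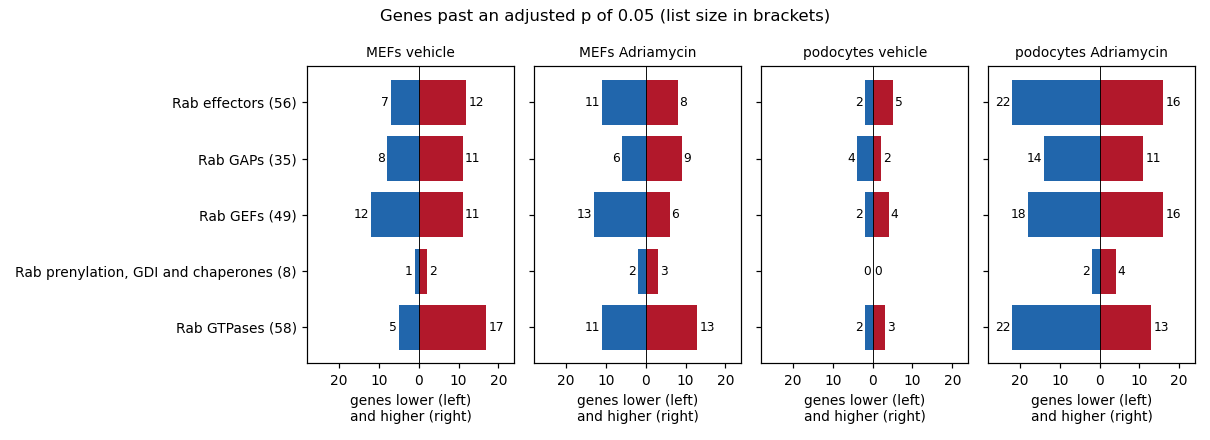
Number of genes called lower (left, blue) and higher (right, red) among the Rab GTPases and 4 lists of their regulators and effectors, in the 4 comparisons; list sizes are in brackets. In MEFs with vehicle the Rab genes have 17 higher and 5 lower, while their GEFs have 11 and 12.

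The genes that modify, regulate and bind Rab proteins were read from fixed lists. Their counts stand against 17.8% higher and 19.6% lower of all genes tested in MEFs with vehicle, and 16.6% and 16.1% with Adriamycin. In podocytes these shares were 8.7% and 5.64% with vehicle, and 27.8% and 27.9% with Adriamycin. No list was tested as a set, and nothing particular to a list is read from its counts. Of 8 genes for prenylation, GDI and chaperones, 2 were higher and 1 lower in MEFs with vehicle, 3 higher and 2 lower with Adriamycin, and 4 higher and 2 lower in podocytes with Adriamycin. Gdi2, which encodes a GDP dissociation inhibitor, was lower in podocytes with Adriamycin, at -0.40 ± 0.04 in the authors' deposited table (adjusted p = 1.29e-24). The Rab escort protein genes Chm (0.69 ± 0.09) and Chml (-1.23 ± 0.15) had opposite signs in that authors' deposited table. Chml, called in 3 comparisons, was lower in each, at -0.77 and -0.55 in the authors' deposited tables for MEFs with vehicle and Adriamycin. Chm was also lower in MEFs with Adriamycin (-0.53 ± 0.16) and not called with vehicle (-0.09) in the authors' deposited tables. Rabggtb, a subunit of the enzyme that attaches the lipid, was higher in podocytes with Adriamycin (1.14 ± 0.07 in the authors' deposited table).

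Of 49 GEF genes, 11 were higher and 12 lower in MEFs with vehicle, 6 and 13 with Adriamycin, 4 and 2 in podocytes with vehicle, and 16 and 18 with Adriamycin. Rin1, an activator of Rab5 proteins, was higher in both MEF comparisons (0.57 ± 0.08 and 0.38 ± 0.07) and lower in podocytes with vehicle (-0.75 ± 0.20) in the authors' deposited tables. Ccz1, part of the Rab7 exchange factor, was lower in MEFs with vehicle (-0.45 ± 0.09 in the authors' deposited table).

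Of 35 GAP genes, 11 were higher and 8 lower in MEFs with vehicle, 9 and 6 with Adriamycin, 2 and 4 in podocytes with vehicle, and 11 and 14 with Adriamycin. Tbc1d2, a GAP for Rab7, was higher in MEFs (1.27 ± 0.12 and 0.86 ± 0.13) and lower in podocytes with vehicle (-0.49 ± 0.14) in the authors' deposited tables. Tbc1d8 was higher in MEFs with vehicle (2.54 ± 0.28) and lower in podocytes with Adriamycin (-0.88 ± 0.05) in the authors' deposited tables.

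Of 56 effector genes, 12 were higher and 7 lower in MEFs with vehicle, 8 and 11 with Adriamycin, 5 and 2 in podocytes with vehicle, and 16 and 22 with Adriamycin. Rab11fip5, an adaptor of Rab11 on recycling endosomes, was higher in MEFs (0.73 ± 0.10 and 0.75 ± 0.08) and lower in podocytes with Adriamycin (-1.43 ± 0.05, adjusted p = 9.29e-181) in the authors' deposited tables. Rab11a itself had the same signs. Kif20a, a kinesin that also acts in cell division, was lower in MEFs with vehicle (-1.37 ± 0.09 in the authors' deposited table).

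The remaining 14 members were called in no comparison. Among them, Rab6a, Rab11b and Rab12 were abundant in MEFs, with mean counts between 1490 and 3464 and changes from -0.01 to 0.07 in the authors' deposited table with vehicle. Rab3a was not called with vehicle (0.44 ± 0.20, adjusted p = 0.0653 in the authors' deposited table). Of the 14, 7 lay below the filter in both MEF tables, among them Rab17, Rab26 and Rab44, so their change was not detectable at this depth.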

How the data were processed

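RNA was extracted with RNeasy kits and made into poly(A) libraries, per the labels' protocols. TopHat2 2.0.13, featureCounts 1.4.5-p1, DESeq2 1.4.1 and GRCm38 are named in the submitters' processing notes, which give no strand setting. The deposited values are 4 DESeq2 tables made by the authors, with a mean normalized count (signal) over both groups, a log2 fold change with its SE, a test statistic (score), a p-value and an adjusted p-value. The tables hold no columns of single samples. The deposited statistic equalled the log2 fold change over its SE within 1.42e-13, in absolute units. The largest SE in the 4 tables was 0.71. The sources used here do not say if the fold changes were shrunk toward 0. Rab9b, at a mean count of 0.16 in MEFs with vehicle, had an SE of 0.32, below the 0.61 of Rab3c at 10.8. If the fold changes were shrunk, sizes and SEs at low counts are understated, and the z tests use such values. The podocyte tables stop at an adjusted p of 0.05. The numbers of genes tested in podocytes, 13876 with vehicle and 17184 with Adriamycin, were recovered from the ratios of the deposited p-values to their adjusted values. In MEFs 15605 and 14139 genes had an adjusted p.

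Depth per library is unknown, so no interval from counting is given. Nothing in the labels says that the 3 replicates came from separate cultures, so p-values may measure technical spread only. Calls rest on the deposited adjusted p below 0.05. Differences between 2 tables, which share no samples, were tested with a 2-sided z test (difference over the root of the summed squared SEs), with Benjamini-Hochberg adjustment over all genes with an adjusted p in both, after a test on simulated data. Intervals are 95%. Python 3.11.15, pandas 2.3.3, numpy 2.4.6, scipy 1.17.1 and matplotlib 3.10.9 were used. Levels per kb use GENCODE M21 exon lengths, and promoters are RefSeq's. The members, role groups and lists were chosen with earlier results of these data known. Any called member could be named. Full statistics went to the 6 highest and 6 lowest called members of each table and the 4 smallest p of each difference test. Outside the family, up to 2 higher and 2 lower members per list and table were named by the smallest adjusted p, with some further called markers; Chm, Gm16278, Gm45140 and Prelid1 were named after their values were seen. A gene that this rule would name and some markers are not reported here.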

Additional observations from a re-analysis of the deposited data

Results flagged for a closer look

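The members below were taken up because the effect of Mof depletion differed between treatments or cell types in the z test on the deposited log2 fold changes (Benjamini-Hochberg adjusted p below 0.05). Values are differences of log2 fold changes. In MEFs the effect with Adriamycin minus that with vehicle was -0.82 for Rab30 and -0.36 for Rab10. In podocytes the same difference was -1.38 for Rab31 and -0.60 for Rab7.

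Podocytes minus MEFs, with vehicle, gave -1.30 for Rab31 and -0.70 for Rab7. With Adriamycin this difference was positive for 11 members: Rab36 (1.61), Rab3d (1.54), Rab38 (1.31), Rab28 (1.16), Rab4a (1.09), Rab33b (0.73), Rab10 (0.72), Rab6b (0.68), Rab8a (0.55), Rab14 (0.22) and Rab1b (0.21). It was negative for 17 members, which were, from the largest, Rab31 (-2.49), Rab43 (-2.45), Rab37 (-1.93), Rab15 (-1.63), Rab27b (-1.39), Rab40c (-1.22), Rab7 (-1.22), Rab24 (-1.15), Rab34 (-1.15), Rab20 (-1.08), Rab23 (-0.99), Rab35 (-0.69), Rab21 (-0.60), Rab11a (-0.55), Rab5c (-0.40), Rab1 (-0.40) and Rab5a (-0.33). The cell types also differ in the drug dose and in how Mof was depleted, which cannot be told apart from the cell type.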

How the results depend on the processing

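No paired analysis was possible because the deposited tables hold no value per sample, and for the same reason no replicate could be left out. The alternatives filter the same deposited fold changes, so none could change a sign. With an absolute log2 fold change of at least 0.5, MEFs with vehicle had 6 higher and 3 lower members, MEFs with Adriamycin 4 and 7, and podocytes with Adriamycin 8 and 14, while podocytes with vehicle had 1 lower. In MEFs with Adriamycin this turned the balance, from 13 higher and 11 lower to more lower than higher. With an adjusted p below 0.01, lower members numbered 2 in MEFs with vehicle, 7 in MEFs with Adriamycin and 1 in podocytes with vehicle, and the drug difference in MEFs called 1 member. With a mean count of at least 100, MEFs with vehicle had 3 lower members.

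Exon overlap was examined by 2 alternatives chosen after seeing the data. Among members with no exon base in another gene (20 members were left out), MEFs with vehicle had 9 higher and 3 lower, MEFs with Adriamycin 8 and 7, podocytes with vehicle 1 lower, and podocytes with Adriamycin 14 lower. The second was added once the first had been seen, and left out only the 9 members with over 10% of their exon bases in another gene. It gave 15 higher and 4 lower in MEFs with vehicle, 11 and 9 in MEFs with Adriamycin, 3 and 2 in podocytes with vehicle, and 12 and 19 in podocytes with Adriamycin. Both lower the counts by leaving out members.

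When p-values were adjusted over all genes with a p, 5 single calls were lost: Rab24 in MEFs with vehicle, and Rab7l1, Rab9, Rab13 and Rab30 in MEFs with Adriamycin. Depth per library is unknown, and changes of members with low counts carried SEs up to 0.71.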
